A study of Arabidopsis thaliana with 9 samples.

Results

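STZ and ORA47 encode transcription factors of plant stress responses, and their transcript levels were followed in leaves of the Arabidopsis rosette (ecotype Col-0). The members were the probe sets whose only gene name in the probe annotation was STZ or ORA47. Each gene had 1 such probe set, so 2 of the 13350 genes measured under a single name are described here. Both genes lie on chromosome 1. They were chosen by their measured levels in the groups, with earlier results of the same arrays in view, so their differences between the groups are given as a description and carry no test.

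STZ, also called ZAT10 and named for salt tolerance, is a zinc finger protein of the C2H2 class that carries an EAR repression motif and is known to be induced by salt, drought, cold, wounding and strong light. ORA47 is an AP2/ERF factor of the DREB branch. It is induced early by wounding and jasmonate, and is known as an activator of genes for jasmonate synthesis. Jasmonate is the oxygenated fatty acid hormone of wounding, which is perceived by COI1 and JAZ repressors and acts through MYC factors. Transcripts of genes of this kind are known for quick, short-lived rises when a leaf is disturbed.

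Leaves of 3 groups were compared, with 3 Affymetrix ATH1 arrays in each: wild type Col-0 given water, the bio4-1 mutant given water, and bio4-1 given 200 µM D-biotin. The mutant's biotin synthesis gene BIO4 is interrupted in the 5' UTR by T-DNA, and this allele is the only one used. All plants were 5 weeks old, watering was weekly, and each RNA came from a pool of 5 plants, so p-values measure the spread between such pools. Wild type given biotin was not analysed here, so what biotin does to the mutant alone cannot be told apart from what it does to Arabidopsis in general. Values are deposited log2 summaries from RMA, in which 1 unit is a doubling, and a low leaf level of a transcript in fewer cells cannot be told from less RNA in every cell. The leaf marker RCA, the Rubisco activase gene, lay between 13.77 and 13.86 on all arrays, and the root marker PYK10 between 2.93 and 3.26.

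In each group, array 1 was unlike arrays 2 and 3. Pairs with exactly 1 of the arrays numbered 1 correlated at 0.95 to 0.972 across probe sets, and the 15 pairs without them at 0.987 to 0.997. The 3 pairs among the arrays numbered 1 ran from 0.950 to 0.994, so these were not all alike. The 3' minus 5' difference of the actin controls, a sign of RNA quality, was 2.68 to 3.26 on the arrays numbered 1 and 1.83 to 2.14 on the other 6, and for GAPDH it was 0.78 to 1.54 against 0.22 to 0.51. For the UBQ controls the ranges overlapped, at 0.84 to 1.10 against 0.97 to 1.18. The part of RNA quality in the results below was not tested. Results are therefore given on all 9 arrays and on arrays 2 and 3 alone.

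STZ was a strongly detected transcript with its highest levels in water-grown bio4-1. In wild type its log2 level was 8.14, 9.83 and 8.57 on arrays 1, 2 and 3. In water-grown bio4-1 it was 9.07, 10.21 and 9.70, and in biotin-watered bio4-1 it was 8.30, 9.10 and 8.88. Array 1 was the lowest and array 2 the highest within every group, and all 3 groups overlapped over 9 arrays. STZ ranked above 77.6% of all probe sets on wild type array 1, its lowest rank, and above 95.0% on bio4-1 array 2, its highest.

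The group means of STZ were 8.85 ± 0.88 (SD, n = 3) in wild type, 9.66 ± 0.57 in bio4-1 and 8.76 ± 0.41 in biotin-watered bio4-1. Water-grown bio4-1 was 0.81 ± 0.47 (SE from the limma fit) above wild type, a 1.75-fold difference of RMA levels. Biotin-watered bio4-1 was 0.90 below water-grown bio4-1, written as −0.90 ± 0.47, and −0.09 ± 0.47 from wild type. The order of the means was therefore bio4-1, wild type, biotin-watered bio4-1, and the lower pair did not differ beyond their spread.

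Among arrays of the same number the differences of STZ had a common direction in both comparisons with water-grown bio4-1. bio4-1 was above wild type by 0.92, 0.38 and 1.13 on arrays 1, 2 and 3. Biotin-watered bio4-1 differed from water-grown bio4-1 by −0.76, −1.11 and −0.82. Against wild type, biotin-watered plants differed by 0.16, −0.73 and 0.31, with no common direction. Without wild type array 2, the highest of its group, the difference of the means from wild type turned from −0.09 to 0.41, and without biotin-watered array 1 it was 0.14. For bio4-1 minus wild type, leaving out 1 array gave 0.46 (without wild type array 1) to 1.301 (without wild type array 2), without bio4-1 array 2 it was 0.54, and array weights gave 0.34.

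With arrays 2 and 3 alone, the differences of STZ were 0.75 ± 0.37 (SE) for bio4-1 minus wild type, −0.96 ± 0.37 for biotin-watered minus water-grown bio4-1 and −0.21 ± 0.37 for biotin-watered bio4-1 minus wild type. These lie close to the values on 9 arrays. In that setting 211 of 13350 genes had a more positive difference between bio4-1 and wild type than STZ, and 72 had a more negative one with biotin. With replicate numbers as a block, the SE of the STZ differences on 9 arrays was 0.20.

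ORA47 varied more than STZ, and most of its variation lay between arrays of 1 group. In wild type the log2 level of ORA47 was 4.99, 9.50 and 8.79 on arrays 1, 2 and 3. In water-grown bio4-1 it was 5.55, 7.75 and 8.28, and in biotin-watered bio4-1 it was 5.14, 6.58 and 6.52. The arrays numbered 1 were the lowest in every group and lay within 0.56 of each other. Both on array 2 and on array 3, wild type was the highest and biotin-watered bio4-1 the lowest. How many of all genes were ordered in this way was not counted. Over all 9 arrays every pair of groups overlapped.

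**Figure D1:**
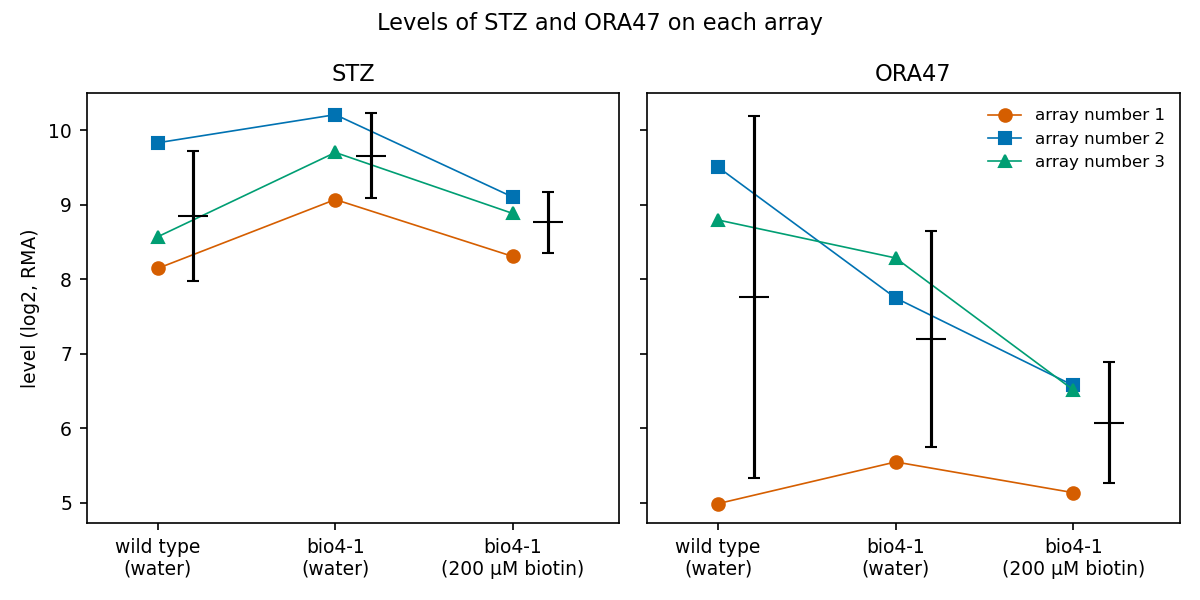
Log2 level of STZ (left) and ORA47 (right) on each of the 9 arrays, by group, where lines join arrays of the same number and black bars give the mean ± SD of 3 arrays. STZ was highest in water-grown bio4-1 on every array number, whereas ORA47 was lowest in biotin-watered bio4-1 on arrays 2 and 3 and near 5 in all groups on array 1.

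The range of ORA47 over 9 arrays was 4.51 on the log2 scale, and 69 of 13350 genes had a larger one. For STZ the range was 2.06, with 693 genes above it. Among 32 transcription factor genes, made up of STZ, ORA47 and those with a WRKY, bZIP, NAC, IAA or TINY name and put together after the data were seen, ORA47 ranked 2 by range, after BZIP61 with 4.85, and STZ ranked 9. WRKY53 followed ORA47 with a range of 4.34. ORA47 stood above 91.3% of all probe sets on wild type array 2 and above 41.5% on wild type array 1.

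The group means of ORA47 were 7.76 ± 2.43 (SD, n = 3) in wild type, 7.19 ± 1.45 in bio4-1 and 6.08 ± 0.81 in biotin-watered bio4-1. On all 9 arrays bio4-1 minus wild type was −0.57 ± 1.21 (SE), biotin-watered minus water-grown bio4-1 −1.12 ± 1.21 and biotin-watered bio4-1 minus wild type −1.69 ± 1.21. Neighbours in this order differed by less than that SE. With replicate numbers as a block the SE of each difference was 0.56. Leaving out wild type array 2 turned the first difference to 0.30, leaving out bio4-1 array 1 turned it to 0.25, and leaving out wild type array 1 moved it to −1.95. The second ran from −1.94 without bio4-1 array 1 to −0.57 without bio4-1 array 3, and was −0.65 without biotin-watered array 1. The last ran from −3.07 without wild type array 1 to −0.82 without wild type array 2.

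On arrays 2 and 3 the means of ORA47 were 9.15 ± 0.50 (SD, n = 2) in wild type, 8.02 ± 0.38 in bio4-1 and 6.55 ± 0.04 in biotin-watered bio4-1. bio4-1 minus wild type was −1.13 ± 0.25 (SE), biotin-watered minus water-grown bio4-1 −1.47 ± 0.25 and biotin-watered bio4-1 minus wild type −2.60 ± 0.25. The last is a 6.07-fold lower level, and 1 of 13350 genes had a more negative value. On the arrays numbered 1 the same differences were 0.56, −0.41 and 0.15, so the difference between biotin-watered bio4-1 and wild type was present on arrays 2 and 3 and not on array 1. There ORA47 lay at 4.99 to 5.55, below the array medians of 5.95 to 5.98. Whether so low a level hid a difference was not tested. The 3 comparisons of the groups share samples, so they are not separate evidence.

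Set side by side, STZ and ORA47 differed in which group was highest. bio4-1 minus wild type was positive for STZ on 3 of 3 array numbers, whereas for ORA47 it was positive on array 1 and −1.75 and −0.51 on arrays 2 and 3. Biotin-watered minus water-grown bio4-1 was negative for both genes on every array number, from −0.76 to −1.11 for STZ and from −0.41 to −1.77 for ORA47. As background to these comparisons, 0.0375% of all genes were called between bio4-1 and wild type on 9 arrays (limma adjusted p under 0.05), 0% with biotin and 0.00749% between biotin-watered bio4-1 and wild type. With biotin, the count of 0 stands beside 550 genes at an unadjusted p under 0.05. The shares on arrays 2 and 3 were 3.39% (1.9% higher, 1.49% lower), 2.74% (1.24% and 1.51%) and 4.29% (2.09% and 2.2%).

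**Figure D2:**
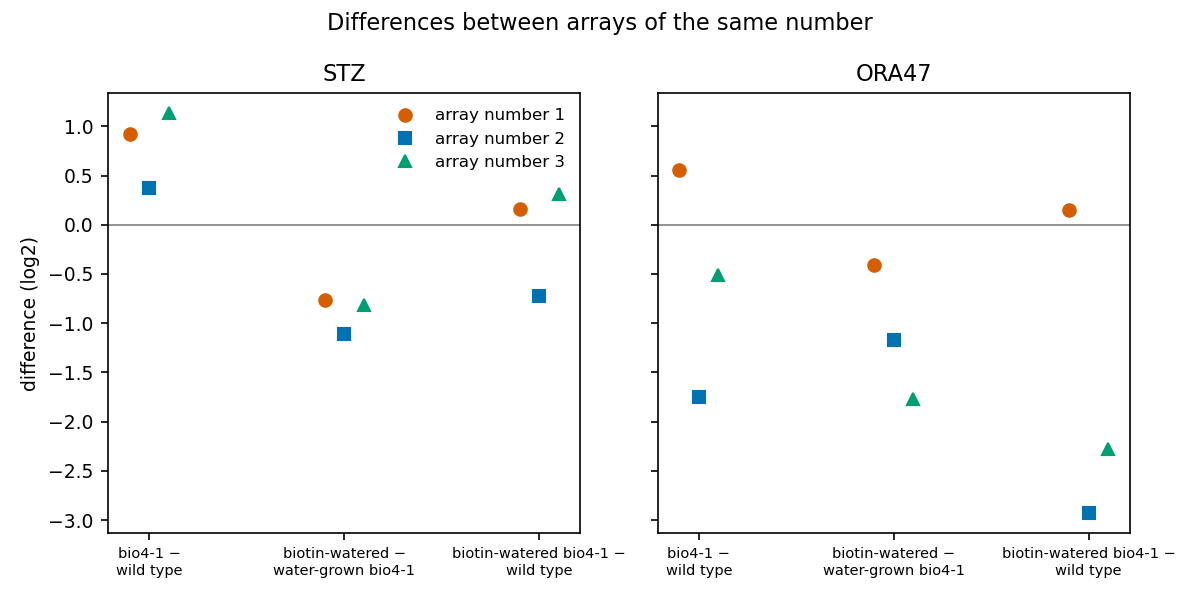
Difference in log2 level between arrays of the same number for STZ (left) and ORA47 (right) in the 3 comparisons. The STZ points lie above 0 for bio4-1 minus wild type and below 0 for biotin-watered minus water-grown bio4-1, and the array 1 points of ORA47 lie between −0.41 and 0.56.

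The contrast of array 1 against arrays 2 and 3 was also fitted, with the groups in the fit. STZ and ORA47 were chosen with earlier results of these same arrays known, so their p-values here are a description and not independent evidence. That contrast was set up after the arrays had been seen to differ, and the labels do not say what the number stands for. For ORA47, array 1 minus the mean of arrays 2 and 3 was −4.16 in wild type, −2.47 in bio4-1 and −1.41 with biotin. In the fit its difference was −2.68 ± 0.45 (SE; limma adjusted p = 0.00652), lower in 3 of 3 groups. Among 13350 genes, 40 had a more negative value. With 1 array left out at a time the difference of ORA47 ran from −3.31 to −1.94, and its call was kept in 9 of 9 fits. These fits reuse the arrays from which ORA47 was chosen, so they too are a description.

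STZ was also lower on the arrays numbered 1 in 3 of 3 groups, with −1.05 in wild type, −0.88 in bio4-1 and −0.69 with biotin. Its fitted difference was −0.87 ± 0.26 (SE; limma adjusted p = 0.0485). The call for STZ was lost in 7 of 9 fits that left out an array, where the limma adjusted p reached 0.171. It was kept only without wild type array 2 or without wild type array 3. Over the 9 fits the difference ran from −1.03 (without wild type array 3) to −0.69 (without wild type array 2). The call was also lost with median centring (adjusted p = 0.0579). Over all genes 21.6% were called in this contrast, 11.1% lower and 10.5% higher on the arrays numbered 1, so a call there is common.

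The list genes of the same pathways were divided in that contrast. They came from 12 lists with 188 members, of which 27 were measured. For 155 members no probe set carried the name, and 6 were left out because the reference did not give theirs. Leaving aside the marker lists, STZ and ORA47, 22 genes remained. Of these, 6 were called lower on the arrays numbered 1 and 3 higher (limma adjusted p under 0.05), beside 11.1% and 10.5% of all genes. By sign alone, 14 of the 22 were lower and 8 higher. CML38, a calmodulin-like gene induced by wounding, was 5.24, 8.12 and 6.19 in wild type, 6.49, 8.15 and 7.22 in bio4-1 and 5.65, 8.47 and 7.86 with biotin. It was low on array 1 in every group and fell by 1.87 in the fit (−1.87 ± 0.45, SE; limma adjusted p = 0.0237), a call lost without wild type array 1 or any biotin-watered array.

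The other genes called lower on the arrays numbered 1 had limma adjusted p from 0.00418 to 0.0274. They were the chloroplast cold-response gene COR15B (−1.31), the ubiquitin ligase gene PUB23 (−1.15), the jasmonate methyltransferase gene JMT (−0.74), the regulator gene WRKY22 (−0.63) and the DREB-branch gene tny (−0.60). JMT lay at 4.05 to 5.57, WRKY22 at 4.15 to 5.25 and tny at 3.57 to 4.89, below the array medians of 5.95 to 6.07. The genes called higher were TINY2 (1.68), MYC4 (1.39) and MYC3 (0.62), with limma adjusted p of 0.0262, 0.00508 and 0.0449. MYC3 and MYC4 are the partners of MYC2 in jasmonate signalling, and TINY2 is a further AP2/ERF factor of the DREB branch. With 1 array left out at a time, COR15B and MYC4 kept their calls in 9 of 9 fits, tny in 8, WRKY22 in 7, JMT in 6, CML38 and PUB23 in 5, TINY2 in 3 and MYC3 in 2. tny lost its call without biotin-watered array 1, and WRKY22 without that array or wild type array 1. JMT lost its call without biotin-watered array 1, wild type array 3 or bio4-1 array 3, and PUB23 without biotin-watered array 1 or 3 or wild type array 1 or 2. TINY2 lost its call without any wild type or biotin-watered array, where the difference went as low as 1.03, and MYC3 without any array but bio4-1 array 1 and biotin-watered array 2.

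**Figure D3:**
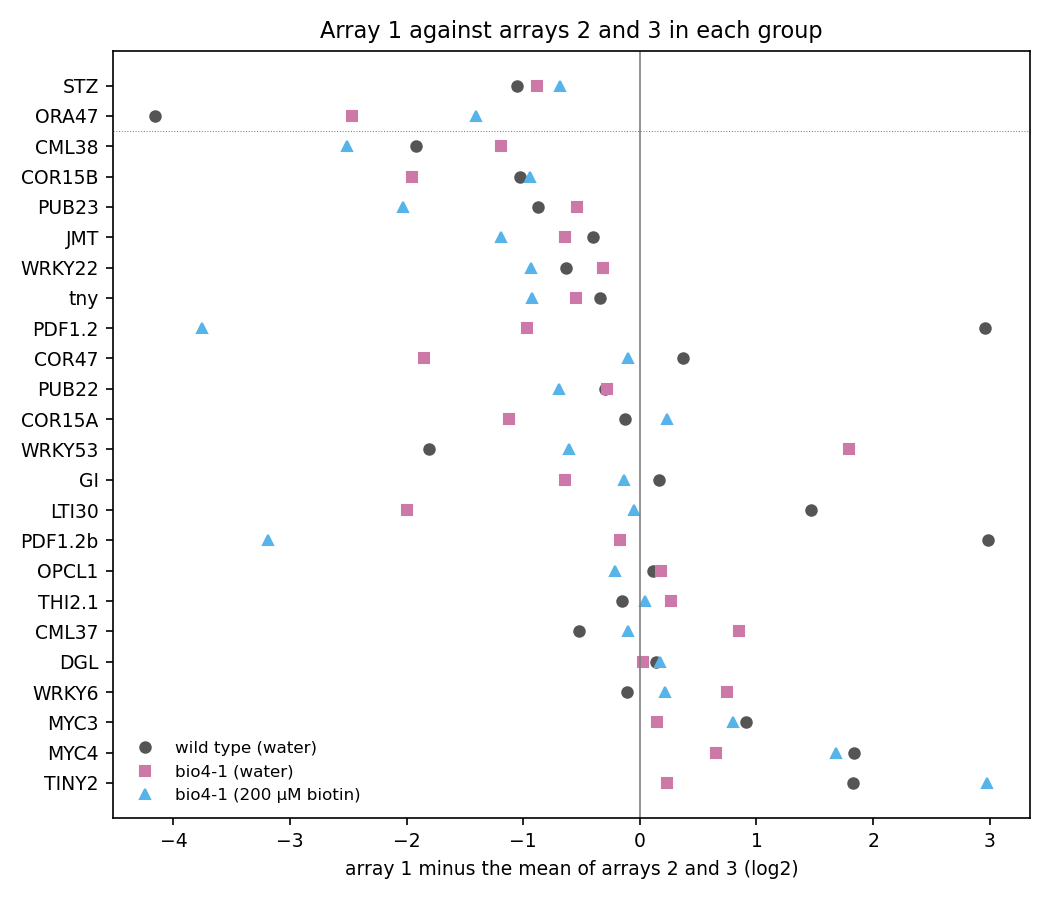
Log2 level on array 1 minus the mean of arrays 2 and 3, in each of the 3 groups, for STZ, ORA47 and the 22 list genes, which are ordered by their mean. ORA47 lies at −4.16, −2.47 and −1.41, below every list gene in wild type, and TINY2, MYC4 and MYC3 lie above 0 in all groups.

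The measured neighbours of ORA47 in pathway and family were then compared between the groups. None of the 22 list genes was called on 9 arrays in any of the 3 comparisons, with 3, 6 and 0 of them at an unadjusted p under 0.05, as were 6.61%, 4.12% and 2.31% of all genes. With arrays 2 and 3 alone, 1 rose and 3 fell in bio4-1 against wild type, 2 rose and 2 fell with biotin, and 1 rose and 2 fell between biotin-watered bio4-1 and wild type, beside 3.39%, 2.74% and 4.29% of all genes called. With replicate numbers as a block, none of these calls was lost and 2, 2 and 4 more genes of the 22 passed the test. That made 6, 6 and 7 of the 22. Of all 13350 genes, 712, 644 and 749 were called with the block, against 453, 366 and 573 without it. The median differences of the 22 on arrays 2 and 3 were 0.06, 0.06 and 0.23, against −0.02, 0.01 and −0.004 over all genes.

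In the AP2/ERF list, the measured genes beside ORA47 were TINY2 and tny. TINY2 had log2 levels of 7.53, 5.77 and 5.63 in wild type, 4.78, 4.44 and 4.65 in bio4-1, and 7.41, 4.27 and 4.61 with biotin. Among arrays 2 and 3, the wild type values of TINY2 lay above those of both mutant groups, while biotin-watered array 1 was higher than either. TINY2 fell by 1.16 in bio4-1 (−1.16 ± 0.14, SE; limma adjusted p = 0.00932) and was −1.26 ± 0.14 with biotin against wild type (adjusted p = 0.0044). On 9 arrays the adjusted p were 0.754 and 1. Leaving out wild type array 2 or 3 ended both calls on arrays 2 and 3, and leaving out bio4-1 array 2 or 3 ended the first, with differences of −1.27 to −1.05 and −1.43 to −1.10. tny differed by 0.56 with biotin on arrays 2 and 3 (adjusted p = 0.0862), by 0.56 between biotin-watered bio4-1 and wild type (0.0771, or 0.0488 with the replicate block) and by −0.001 between bio4-1 and wild type.

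Of the jasmonate synthesis list 3 of 17 members were measured, and for the other 14 no probe set carried the name alone. None of the 3 was called in any comparison of the groups, with or without the replicate block. OPCL1, which activates precursors for the oxidation steps of jasmonate synthesis, lay between 8.80 and 9.96 on all 9 arrays. JMT lay between 4.05 and 5.57, with differences on arrays 2 and 3 of 0.33, 0.32 and 0.65 in the 3 comparisons (limma adjusted p from 0.136 to 0.486). DGL, a lipase gene of the pathway, stayed between 3.31 and 3.63. On the same arrays, where ORA47 was lowest in biotin-watered plants, OPCL1 differed by 0.51, JMT by 0.65 and DGL by 0.01 between these plants and wild type. None of these passed the test. JMT and DGL lay below the medians of arrays 2 and 3 (5.96 to 6.07), and whether so low a level hid a difference was not tested.

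Of the 5 measured genes of jasmonate perception and response none was called between the groups without the replicate block. MYC4 differed by −0.62 ± 0.14 (SE) between biotin-watered bio4-1 and wild type on arrays 2 and 3 (limma adjusted p = 0.0521, or 0.0439 with the block). The defensin gene PDF1.2, a marker of joint jasmonate and ethylene action, had levels of 11.42, 8.18 and 8.74 in wild type, 7.55, 8.68 and 8.37 in bio4-1 and 5.77, 9.12 and 9.94 with biotin. On arrays 2 and 3 PDF1.2 differed by 1.00 with biotin and by 1.06 between biotin-watered bio4-1 and wild type, with limma adjusted p of 0.121 and 0.0947, or 0.0479 and 0.0339 with the block. PDF1.2 was highest on wild type array 1, where ORA47 was lowest, but was itself lowest on biotin-watered array 1, where ORA47 was also low (5.14). PDF1.2b followed with 10.34 on wild type array 1 and 4.91 on biotin-watered array 1; the genes are near-identical copies, and their probe sets may share signal. THI2.1, a thionin gene induced by jasmonate, stayed between 2.99 and 3.40.

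In the list of rapid wound, touch and oxidative stress responses, where STZ and ORA47 themselves could stand, WRKY6 and WRKY53 were the genes called on arrays 2 and 3. WRKY6, a regulator of defence and senescence, had levels of 4.78, 4.69 and 5.10 in wild type, 7.03, 6.31 and 6.25 in bio4-1 and 4.86, 4.69 and 4.59 with biotin. Its bio4-1 values lay above all others on 9 arrays. It rose by 1.39 ± 0.14 (SE) in bio4-1 (limma adjusted p = 0.0054) and fell by 1.64 with biotin (−1.64 ± 0.14; adjusted p = 0.00427). With the arrays numbered 1 as a block on 9 arrays, where 0.247% and 0.0524% of all genes were called, the adjusted p were 0.0362 and 0.0426, and without the block 0.0973 and 0.184. Leaving out wild type array 2 or bio4-1 array 2 or 3 ended the first call, and bio4-1 array 2 or 3 or biotin-watered array 3 the second.

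WRKY53, a senescence and defence regulator, had levels of 5.37, 7.46 and 6.89 in wild type, 9.70, 7.98 and 7.84 in bio4-1 and 5.62, 6.15 and 6.31 with biotin. It fell by 1.68 with biotin on arrays 2 and 3 (−1.68 ± 0.18, SE; limma adjusted p = 0.00873) and by 0.95 from wild type to biotin-watered bio4-1 (−0.95 ± 0.18; adjusted p = 0.029). Like STZ, WRKY53 was highest in bio4-1 on every array number. Leaving out any array of bio4-1 or of the biotin-watered plants ended both calls, and wild type array 2 the second, as did 2-group fits. The calmodulin-like genes CML37 and CML38, the ubiquitin ligase genes PUB22 and PUB23, and WRKY22 had adjusted p of 0.189 or more in all 3 comparisons on arrays 2 and 3. With the replicate block PUB23 passed the test in bio4-1 (0.71, adjusted p = 0.021) and between biotin-watered bio4-1 and wild type (0.74, adjusted p = 0.0166), and WRKY53 in bio4-1 (0.73, adjusted p = 0.0401, against 0.0795 without it).

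STZ is named for salt tolerance, and the list of salt, cold and drought responses had 4 measured genes. COR15A and COR15B fell in bio4-1 on arrays 2 and 3, by 1.12 (−1.12 ± 0.18, SE) and 0.76 (−0.76 ± 0.14), and rose with biotin by 1.34 ± 0.18 and 0.92 ± 0.14, with limma adjusted p from 0.0129 to 0.0281. All 4 of these calls ended with any of the 6 arrays left out, where the adjusted p reached 0.228, and with 2-group fits. LTI30, a dehydrin gene, rose by 1.69 ± 0.36 from wild type to biotin-watered bio4-1 (adjusted p = 0.0409), a call lost without any wild type or biotin-watered array, with trend and robust variances and with array weights. COR47 differed by −0.17 in bio4-1 and 0.67 with biotin on these arrays (adjusted p = 0.693 and 0.0927, the latter 0.0427 with the replicate block). The direction of STZ between the groups was the opposite of that of COR15A, COR15B and COR47, as a description of these arrays. LTI30 had the direction of STZ between bio4-1 and wild type on arrays 2 and 3 (0.64, limma adjusted p = 0.409) and the opposite one on 9 arrays (−0.51). GI, the measured clock gene, lay between 9.27 and 10.10 and was not called.

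**Figure D4:**
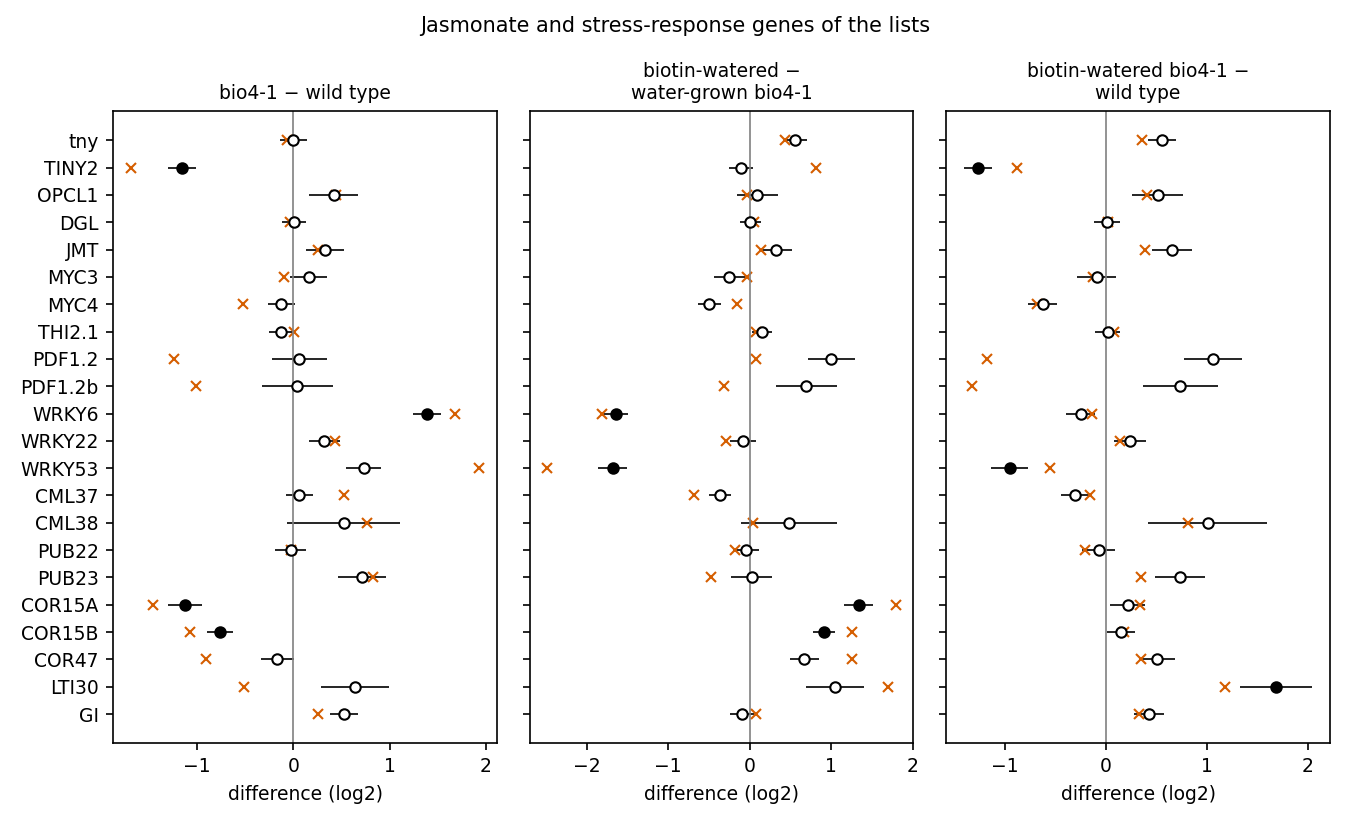
Differences in log2 level of the 22 list genes in the 3 comparisons. Circles with bars give the difference ± SE on arrays 2 and 3, filled where the limma adjusted p was under 0.05, and crosses give the difference on all 9 arrays; filled circles mark TINY2, WRKY6, COR15A and COR15B in the first comparison.

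The genes whose levels were most like those of STZ and ORA47 were ranked by Pearson correlation over 9 arrays among 3160 other genes with a range of at least 1 on the log2 scale. The arrays share groups, array numbers and normalization, so the correlations are a description. For STZ the highest were AT4G27280 (0.972), AT2G22880 (0.948), AT2G27310 (0.910), AT1G76600 (0.883) and AT5G49900 (0.877). The same correlations on arrays 2 and 3 were 0.984, 0.919, 0.969, 0.953 and 0.776. AT4G27280 had levels of 7.80, 10.22 and 9.13 in wild type, 9.67, 10.93 and 10.35 in bio4-1 and 8.39, 9.48 and 9.34 with biotin. Its order within each group and between the groups on each array number was that of STZ, with biotin-watered plants between wild type and bio4-1 on arrays 1 and 3.

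For ORA47 the highest were AT2G18210 (0.976), AT1G11440 (0.965), AT2G36430 (0.937), AT1G78990 (0.933) and AT5G51390 (0.930). Ranked on arrays 2 and 3 alone, 0 of these 5 and 1 of the 5 for STZ stayed among the highest 5. AT2G18210 had levels of 5.21, 7.17 and 7.14 in wild type, 5.35, 6.50 and 7.05 in bio4-1 and 5.58 and 6.12 on arrays 1 and 3 with biotin, with array 2 between them. It was highest in wild type and lowest with biotin on arrays 2 and 3, and on array 1 it was low in all groups, as was ORA47. Its range was 1.96, against 4.51 for ORA47. The most opposite genes were AT5G11970 (−0.928), AT1G17230 (−0.912) and AT3G17770 (−0.888) for ORA47, and AT2G41190 (−0.891), AT3G14560 (−0.873) and AT2G37870 (−0.872) for STZ.

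**Figure D5:**
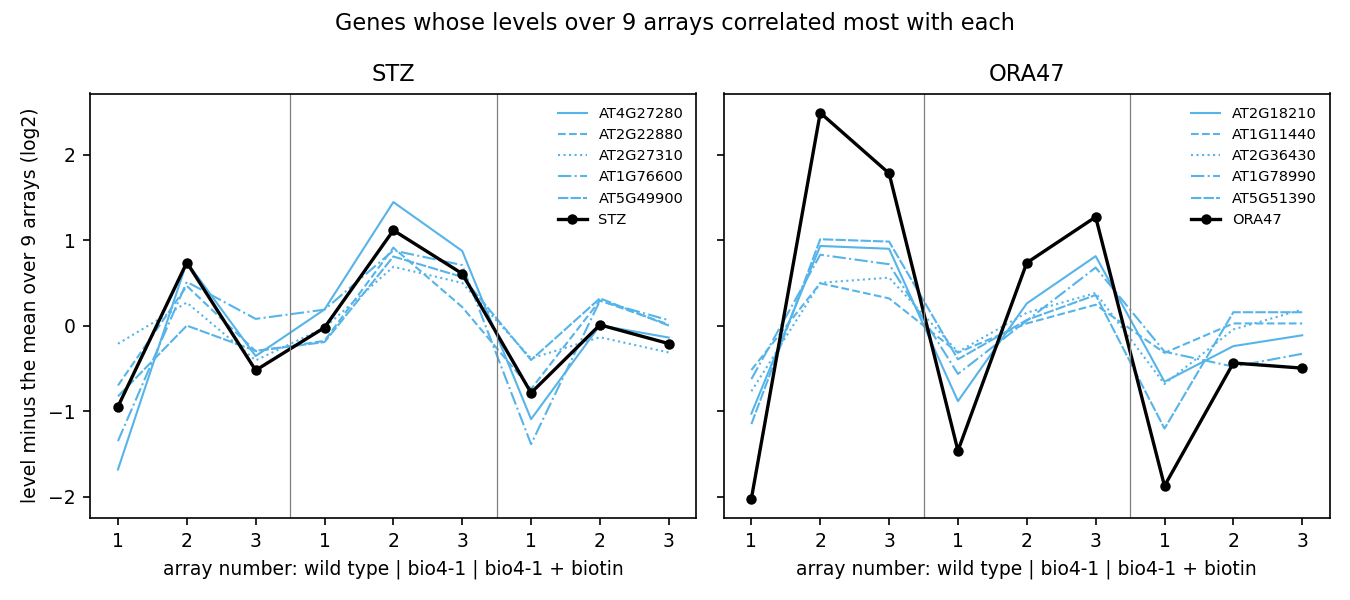
Log2 level on each array minus the mean over 9 arrays for STZ (left) and ORA47 (right), in black, with the 5 genes of highest Pearson correlation in blue; vertical lines part the groups. STZ and ORA47 dip at array 1 in each group, which AT1G78990 with biotin and AT2G27310 in wild type do not, and the fall of ORA47 from wild type to biotin-watered plants on arrays 2 and 3 is wider than that of the genes beside it.

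Between STZ and ORA47 themselves the correlation was 0.647 over 9 arrays, and 169 of the 3160 genes had a higher one with STZ and 598 with ORA47. It was 0.279 on arrays 2 and 3, and after the group means were removed it was 0.808 over 9 arrays. It was thus higher with the groups' means removed than with them. On the chromosome, the genes next to ORA47 with a named probe set were AT1G74910, the aldehyde dehydrogenase gene ALDH10A8 and AT1G74940. These had ranges over 9 arrays of 1.57, 0.58 and 1.65, below the 4.51 of ORA47. The genes on either side of STZ were not analysed here.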

How the data were processed

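The authors' deposited log2 values were made with RMA, per the submitters' processing notes (version not given in the sources used here). Of 22810 probe sets, 64 controls were left out and 22746 tested. A gene was its singly named probe set with the highest mean, which gave 13350 genes; 503 probe sets had several names and 8730 none. Names were checked against the TAIR10.1 reference table. A limma fit (limma 3.58.1, R 4.3.3) held all groups, with Benjamini-Hochberg adjustment over probe sets at 0.05. The members and lists were chosen with earlier results of these data known. List genes were named where called in either fit, with the 2 of widest range per list. Same-numbered arrays deviated together for biotin-watered against water-grown bio4-1 (r from 0.264 to 0.366) and against wild type (0.595 to 0.825). Arrays 2 and 3 of different number correlated about as highly (0.195 and 0.379, and 0.631 and 0.61). Same-numbered arrays of bio4-1 and wild type did not all deviate together (−0.03 to 0.36). These values do not establish pairs, and the main fits held no pairing. Differences between same-numbered arrays are given as a description. Alternatives were a replicate block, quantile and median scaling, other variance models, array weights, a filter at log2 6, 2-group fits, a threshold of 0.1 and leaving out each array. No member of the lists of abscisic acid synthesis or flower and seed markers had a probe set that carried its name alone, so none was followed. The guard cell marker FMA lay between 5.79 and 6.76.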

Additional observations from a re-analysis of the deposited data

How the results depend on the processing

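The differences of STZ and ORA47 kept their direction under all alternatives but the 4 with an array left out that are given in the text: for STZ between biotin-watered bio4-1 and wild type 0.41 and 0.14 (range over arrays left out −0.44 to 0.41), and for ORA47 between bio4-1 and wild type 0.30 and 0.25 (range −1.95 to 0.30). The other shifts were smaller than the residual SD of each gene in the fit, though values moved by over 1.5 times with some arrays left out; with array weights the 3 differences were 0.34, −0.85 and −0.50 for STZ and −1.36, −1.33 and −2.68 for ORA47. Blocks by array 1 and the settings of that contrast were chosen after seeing the data. Counts of genes called depended on the setting. On 9 arrays, 5 genes between bio4-1 and wild type became 512 with array weights, 33 with the arrays numbered 1 as a block, 9 at an adjusted p of 0.1, 1 with the filter at log2 6, 2 in 2-group fits and 1 to 5 with 1 array left out. With biotin the 0 became 423 with array weights, 7 with that block and 0 to 1 with 1 array left out. Between biotin-watered bio4-1 and wild type the 1 gene became 1645 with array weights and 1 to 3 with 1 array left out. On arrays 2 and 3, the 453, 366 and 573 genes became 815, 723 and 868 at an adjusted p of 0.1 and 107, 53 and 226 in 2-group fits; with 1 array left out they ranged from 7 to 107, 0 to 56 and 2 to 226, with fewer samples in each fit. With the replicate number as a block on arrays 2 and 3, 712 genes were called between bio4-1 and wild type, 644 with biotin and 749 between biotin-watered bio4-1 and wild type; on 9 arrays the block gave 6, 0 and 1, and called 0 of the 22 list genes. On arrays 2 and 3 it ended no call of a list gene and added 2, 2 and 4, which the text names; it was not run on the contrast of array 1. The cause was not tested for any of these shifts. The difference of STZ on the arrays numbered 1 lost its call with median centring (−0.81) and ranged from −1.03 to −0.69 with 1 array left out. That of ORA47 ranged from −3.31 to −1.94 and kept its call, as a description of the arrays from which it was chosen. The correlation between STZ and ORA47 moved to 0.279 on arrays 2 and 3. Each gene had 1 probe set, so no other could be tried. The number of arrays limits the precision of every value.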
